A study of Mus musculus with 6 samples.

Results

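The aldehyde dehydrogenase family was examined in mouse hepatocytes through 10 genes, Aldh3a2, Aldh1a1, Aldh1a7, Aldh1b1, Aldh2, Aldh4a1, Aldh7a1, Aldh8a1, Aldh9a1 and Aldh1l1. These were picked by symbol from the 34745 genes counted in every library, which hold 21 aldehyde dehydrogenase genes in all. Each of the 10 had enough counts to be tested, as did 14417 genes of the whole table. The 10 genes were chosen with their difference between FOXA2H-KO and FOXA2f/f hepatocytes already known, from the same counts, so that difference is given as a description and nothing is supported with it.

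Both groups were FOXA2f/f mice, in which loxP sites flank both Foxa2 alleles, and all were male, 12 weeks old and given the hepatotoxin CCl4 (0.25 ml/kg, 2 injections a week over 4 weeks) to induce fibrosis. FOXA2f/f + CCl4 mice had received the control virus AAV8-TBG-Control 2 weeks before CCl4, and FOXA2H-KO + CCl4 mice had received AAV8-TBG-Cre at the same time. TBG is a hepatocyte promoter, so that Cre recombinase was driven in hepatocytes and not aimed at other liver cells. RNA of primary hepatocytes gave 3 libraries per group, numbered 1, 2 and 4, and no group without CCl4 was analysed here, so that the effect of CCl4 itself on these genes was not examined.

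Aldehyde dehydrogenases oxidise aldehydes to carboxylic acids with NAD or NADP, in the cytosol, the mitochondria and the endoplasmic reticulum. The liver holds much of the body's capacity for this step, which clears acetaldehyde from ethanol, lipid aldehydes from peroxidation and the semialdehydes that arise when amino acids are broken down. CCl4 is known for starting lipid peroxidation in hepatocytes, and FOXA2 is a forkhead transcription factor of the hepatocyte.

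Foxa2, read first as a check of the labels, had 442, 246 and 516 counts in FOXA2f/f replicates 1, 2 and 4 and 28, 19 and 35 counts in FOXA2H-KO replicates 1, 2 and 4. It was the only gene called at an adjusted p under 0.05 and a fold change of at least 2 by the quasi-likelihood test of edgeR, with p adjusted by Benjamini-Hochberg (log2 fold change −3.85 ± 0.31 SE, adjusted p = 0.0313). Total counts were between 20983455 and 28327765 per library. Hepatocyte markers (Alb, Apoa1, Hnf4a and others, 10 of 10 tested) summed to between 117669 and 168122 CPM (counts divided by the TMM-adjusted library size, where TMM is edgeR's scaling between libraries). These sums reached 121773 to 168122 CPM in FOXA2f/f and 117669 to 152302 CPM in FOXA2H-KO libraries. Of the 10 markers, 9 were below 0 in log2 fold change (median −0.13), but 4 with library size alone (median 0.0053). All FOXA2H-KO libraries were lower for 2 of the 10 in CPM and for 0 in FPKM, where 5.96% and 3.24% of all genes were. FOXA2f/f replicate 2 stood apart from the others. Across genes, its log2 CPM correlated with those of the other libraries at 0.947 to 0.969, and it held the lowest summed markers of endothelial cells, macrophages, stellate cells, cholangiocytes, lymphocytes and neutrophils and the highest of hepatocytes. This library had the lowest TMM factor of the 6, which raises its CPM, and its first place for hepatocytes depended on that scaling. Without a factor, the largest gene, Alb, took 10.8% of the counts of FOXA2f/f replicate 2 and 11.0% of those of FOXA2H-KO replicate 4. The endothelial markers summed to 239 to 824 CPM in FOXA2f/f and 397 to 513 CPM in FOXA2H-KO libraries, the macrophage markers to 621 to 2499 and 1281 to 1912 CPM, and the stellate cell markers to 1060 to 2680 and 1546 to 2553 CPM. The cholangiocyte markers (6 of 7 tested) lay at 299 to 511 CPM in FOXA2f/f and 393 to 858 CPM in FOXA2H-KO, and the 6 of 6 tested were above 0 in log2 fold change. The lymphocyte markers, 5 of 8 tested, stayed between 1.26 and 5.63 CPM in the 6 libraries, and the neutrophil markers reached 74.0 CPM in FOXA2f/f replicate 1 against 14.8 CPM at most in FOXA2H-KO. FOXA2f/f replicate 2 also held the highest CPM of the 6 libraries for 7 of the 10 genes (Aldh1a1, Aldh1a7, Aldh1b1, Aldh4a1, Aldh8a1, Aldh9a1 and Aldh1l1). FOXA2H-KO replicate 1 held the lowest CPM for 5 genes. Both counts depended on the scaling. In FPKM, described below and without a TMM factor, FOXA2f/f replicate 2 stayed the highest for Aldh1a1, Aldh1b1, Aldh8a1 and Aldh9a1. FOXA2f/f replicate 4 was instead the highest in FPKM for Aldh1a7, Aldh4a1 and Aldh1l1. FOXA2H-KO replicate 1 stayed the lowest in FPKM for Aldh1a7, Aldh7a1 and Aldh9a1, but not for Aldh2 and Aldh1l1. No marker of these lists was at 0 in every library. The part of the other cell types in any difference below was not tested, and in such bulk libraries fewer cells of a type and less RNA per cell cannot be told apart.

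Aldh1a1 and Aldh1a7 lie side by side on chromosome 19 of GRCm38, Aldh1a1 (ENSMUSG00000053279) on the plus strand at chr19:20492715-20643465 and Aldh1a7 (ENSMUSG00000024747) on the minus strand at chr19:20692953-20727562, 49488 bases apart. Their coding sequences are 1503 bases each, and 1377 bases, 91.6%, were identical in GENCODE M21. The longest identical stretch was 100 bases, and 3.06% of the 50-base stretches of the Aldh1a1 transcripts and 7.49% of those of Aldh1a7 also occurred in the other gene. How fragments that matched both were counted is not given in the sources used here. The 60 bases of exon 4 where the pair differed most, by 16 bases, are shown because fragments from such places tell the genes apart. Capitals mark the differing bases, with the Aldh1a1 window at chr19:20619973-20620032 on the plus strand and the Aldh1a7 window at chr19:20719252-20719311 on the minus strand.
Aldh1a1: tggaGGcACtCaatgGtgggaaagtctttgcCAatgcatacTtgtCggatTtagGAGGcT
Aldh1a7: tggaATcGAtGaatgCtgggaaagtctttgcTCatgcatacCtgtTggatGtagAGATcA

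The 250 bases before the start of each gene in RefSeq (GRCm38.p6) were searched on both strands for 5 motifs. The core bound by forkhead factors such as FOXA2 was taken as TGTTTAC, and windows that instead held the related forkhead word TGTTTGC were counted as holding it as well. The third spelling accepted for the forkhead core in this search was TATTTAC. The word searched for nuclear receptors, which bind it alone or as a repeat, was AGGTCA. The others were the TATA box, spelled TATAAA, the box named after its letters CCAAT, and the core of the element bound by the oxidant sensor NRF2, spelled TGACNNNGC. Windows were found for 8 of the 10 genes, with Aldh2 and Aldh7a1 having none in the table, and Aldh1a1 had 2 starts. The windows of Aldh3a2, Aldh1a1 and Aldh1a7 are shown because Aldh3a2 and Aldh1a7 had the highest and the lowest log2 fold change of the 10 and Aldh1a1 is the neighbour of Aldh1a7. Capitals mark the matches, and each window is printed 5′ to 3′ on the strand of its gene.
Aldh3a2, chr11:61267187-61267436, minus strand: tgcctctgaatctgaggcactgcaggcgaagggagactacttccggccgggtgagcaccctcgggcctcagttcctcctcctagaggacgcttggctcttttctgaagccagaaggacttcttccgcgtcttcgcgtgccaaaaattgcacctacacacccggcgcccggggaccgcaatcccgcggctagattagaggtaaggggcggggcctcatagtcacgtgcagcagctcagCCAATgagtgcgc
Aldh1a1, chr19:20601718-20601967, plus strand: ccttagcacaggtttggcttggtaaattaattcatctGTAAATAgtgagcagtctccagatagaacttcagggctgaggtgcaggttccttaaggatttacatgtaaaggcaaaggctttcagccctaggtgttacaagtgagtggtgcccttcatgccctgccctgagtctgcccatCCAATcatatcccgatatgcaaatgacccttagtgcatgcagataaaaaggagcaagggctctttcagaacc
Aldh1a7, chr19:20727557-20727806, minus strand: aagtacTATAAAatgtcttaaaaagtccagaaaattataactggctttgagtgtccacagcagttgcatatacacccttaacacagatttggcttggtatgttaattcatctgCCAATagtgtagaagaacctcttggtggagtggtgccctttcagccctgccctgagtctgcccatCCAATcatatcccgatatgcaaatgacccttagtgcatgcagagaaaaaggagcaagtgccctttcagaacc
The Aldh1a1 window shown held the only forkhead core among the 9 windows, 213 bases before the start, on the strand opposite to the gene, so that it reads GTAAATA above. A forkhead core was present in 9.7% of 32817 promoter windows of this length. This start of Aldh1a1 and that of Aldh1a7 shared a CCAAT box at 72 bases before, and Aldh1a7 had another 137 bases before it and a TATAAA word 244 bases before it. Aligned over 265 columns, these windows of the pair had 173 bases in common, 65.3%. The Aldh3a2 window held 18 CG pairs, more than 78.3% of all windows, with a CCAAT box 13 bases before the start, whereas the windows of Aldh1a1 and Aldh1a7 shown held 1 CG pair each. The window before the other Aldh1a1 start, chr19:20492333-20492582, held 3 CG pairs and none of the 5 motifs, and had 50.9% of its aligned bases in common with that of Aldh1a7. CCAAT occurred in 33.8% of all windows and TATAAA in 12.4%. Aldh1l1 had the only nuclear receptor word, read here as TGACCT, and Aldh9a1 the only antioxidant core, words present in 14% and 10.2% of all windows. A match is a run of letters and was not tested as a binding site.

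Levels of different genes were compared per length, by the authors' FPKM values (fragments counted on a gene, divided by its length and by the total count of the library). In FOXA2f/f hepatocytes Aldh1a1 had the highest FPKM, 345 ± 28.9 (SD, n = 3), followed by Aldh2 with 175 ± 25.7, Aldh1l1 with 135 ± 2.103, Aldh1b1 with 97.7 ± 17.01 and Aldh1a7 with 94.7 ± 7.31. Aldh8a1, Aldh7a1, Aldh9a1, Aldh4a1 and Aldh3a2 followed with 46.8, 45.2, 39.98, 19.9 and 10.004 FPKM. The neighbours Aldh1b1 and Aldh1a7, Aldh8a1 and Aldh7a1, and Aldh7a1 and Aldh9a1 overlapped over the 3 libraries, and the other neighbours did not. In FOXA2H-KO hepatocytes the first 4 places were the same, with 297 ± 17.1 FPKM for Aldh1a1, 177 ± 10.1 for Aldh2, 107 ± 22.2 for Aldh1l1 and 66.9 ± 9.69 for Aldh1b1. Aldh1a7 came after Aldh8a1, at 46.1 ± 7.55 against 46.4 ± 1.15 FPKM, with overlapping libraries, and Aldh3a2, at 25.6 ± 4.66 FPKM, came before Aldh4a1 at 15.5 ± 1.69 FPKM, without overlap. The order rests on the gene lengths behind FPKM. For Aldh1a1 this length was 2053 bases, against 4937 bases of merged exons in GENCODE M21, and with the latter lengths Aldh2 and Aldh1l1 came before Aldh1a1 and Aldh7a1 before Aldh8a1 in both groups, while Aldh3a2 and Aldh4a1 again exchanged places without overlap.

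**Figure D1:**
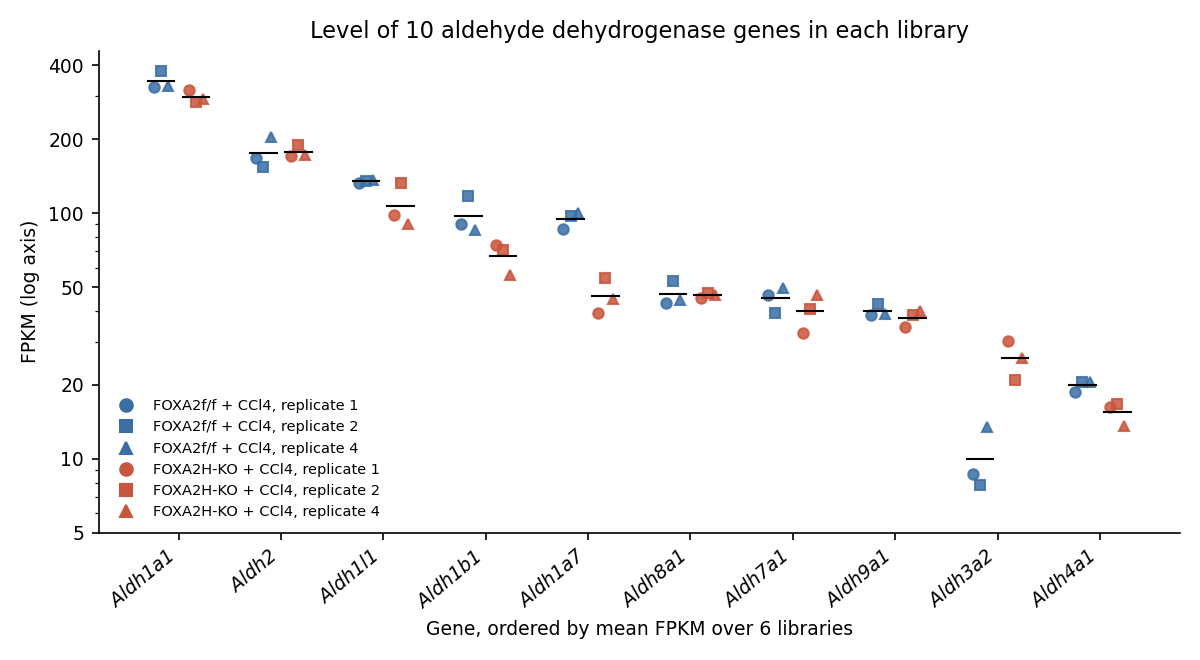
FPKM of the 10 genes (log axis) in each library, ordered by their mean over the 6 libraries; blue symbols are FOXA2f/f + CCl4, red symbols FOXA2H-KO + CCl4, shapes the replicate numbers and black bars group means. Aldh3a2 is the gene whose FOXA2H-KO libraries all lie above its FOXA2f/f libraries, and those of Aldh1a7, Aldh1b1, Aldh4a1 and Aldh1a1 lie below.

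Aldh3a2 (ENSMUSG00000010025, chr11:61223417-61267464, minus strand) encodes the fatty aldehyde dehydrogenase of the endoplasmic reticulum, which oxidises long-chain aliphatic aldehydes and is a known target of the fatty acid receptor PPARα. It had 64.4, 60.5 and 81.8 CPM in FOXA2f/f replicates 1, 2 and 4 and 181, 138 and 175 CPM in FOXA2H-KO replicates 1, 2 and 4. Every FOXA2H-KO library was above every FOXA2f/f library, with 0.75 log2 units between the closest libraries of the groups. The means were 68.9 ± 11.4 and 165 ± 23.2 CPM (SD, n = 3), 2.39-fold higher in FOXA2H-KO, with a log2 fold change of 1.26 ± 0.18 (SE). Of the 14417 genes tested, 116 had a higher log2 fold change, and 2 had a smaller unadjusted p. The next gene on the chromosome, Aldh3a1, 4996 bases away and encoding a cytosolic member of the family, had 0 counts in 5 libraries and 1 count in FOXA2H-KO replicate 1, where a count of 0 allows up to 0.106 to 0.143 CPM (3 counts of the library's total, unscaled), as far as counting error goes.

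Of the genes of the steps next to Aldh3a2, 0 were called by the quasi-likelihood test of edgeR. Of 13 genes that make or pass on fatty aldehydes or hydroxylate fatty acids, such as Sgpl1, Far1 and the Cyp4f genes, 8 were above and 5 below 0, and the groups overlapped in all 13 (median log2 fold change 0.04). With library size alone 11 were above and 2 below 0, with a median of 0.18, and without FOXA2H-KO replicate 2 the median was −0.0083. Cyp4f14, a fatty acid hydroxylase, had 209 ± 30.4 CPM in FOXA2f/f and 256 ± 45.3 CPM in FOXA2H-KO (log2 fold change 0.30 ± 0.19, and 0.17 without FOXA2H-KO replicate 2). Cyp4v3, another fatty acid hydroxylase, had 393 ± 135 and 479 ± 13.04 CPM with overlap. Of 21 PPARα target genes tested, 17 were above 0 with a median of 0.35, beside a median of −0.01 over all genes tested, and 0 were called. This rested on FOXA2H-KO replicate 4, without which 11 of 21 were above 0 and the median was 0.0040. The groups did not overlap for 2 of them, both higher in FOXA2H-KO, a direction that 4.54% of all genes took without overlap. One was Acot3, a peroxisomal acyl-CoA thioesterase, with 0.99, 0.49 and 0.60 CPM in FOXA2f/f and 3.27, 2.61 and 15.3 CPM in FOXA2H-KO replicates 1, 2 and 4 (log2 fold change 3.32 ± 0.75, and 2.07 without replicate 4). DESeq2 called Acot3 (adjusted p = 0.000541), whereas the quasi-likelihood test did not. The highest library for Acot3 was FOXA2H-KO replicate 4, whereas Aldh3a2 was highest in replicate 1. The other was Angptl4, a secreted inhibitor of lipoprotein lipase, with 171 CPM on average in FOXA2f/f and 229 CPM in FOXA2H-KO (log2 fold change 0.42 ± 0.18). Acot1, the cytosolic relative of Acot3, had a log2 fold change of 1.30 ± 0.45 with overlapping groups, and 0.67 without FOXA2H-KO replicate 4. The list's median without any normalization factor was 0.46, and with DESeq2, over the 19 genes it tested, 0.20.

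Aldh1a1 encodes the cytosolic dehydrogenase that makes retinoic acid from retinal, and Aldh1a7 a close cytosolic relative. Aldh1a7 had 196, 232 and 186 CPM in FOXA2f/f replicates 1, 2 and 4 and 72.3, 110 and 93.4 CPM in FOXA2H-KO replicates 1, 2 and 4. The groups were 0.76 log2 units apart at their closest, with all FOXA2H-KO libraries lower. The means were 205 ± 24.1 and 91.9 ± 18.9 CPM, so that FOXA2H-KO had 44.9% of the FOXA2f/f level (log2 fold change −1.16 ± 0.19), and 154 of the genes tested had a lower log2 fold change. Aldh1a1 had 735, 892 and 611 CPM in FOXA2f/f and 578, 572 and 602 CPM in FOXA2H-KO. Its groups also did not overlap, but by 0.02 log2 units only, and the log2 fold change was −0.35 ± 0.19. The FOXA2H-KO libraries were close together, with a coefficient of variation of 2.69% against 18.9% in FOXA2f/f. With the counts of the pair summed, the log2 fold change was −0.49 ± 0.19.

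The ratio of the pair within a library does not depend on scaling between libraries. Aldh1a7 stood to Aldh1a1, in FPKM, at 0.265, 0.258 and 0.303 in FOXA2f/f replicates 1, 2 and 4 and at 0.124, 0.191 and 0.154 in FOXA2H-KO replicates 1, 2 and 4. The groups did not overlap, with means of 0.276 ± 0.0240 and 0.157 ± 0.0335. Aldh1a7 thus was lower relative to its neighbour in each FOXA2H-KO library. The ratio of Aldh3a2 to Aldh9a1 was 0.227, 0.182 and 0.349 in FOXA2f/f and 0.879, 0.541 and 0.647 in FOXA2H-KO, again without overlap, and that of Aldh1b1 to Aldh2, the mitochondrial pair, was 0.538, 0.758 and 0.420 against 0.434, 0.375 and 0.325, with overlap. Of the summed FPKM of the 10 genes, 1009 ± 45.6 in FOXA2f/f and 859 ± 34.0 in FOXA2H-KO, Aldh3a2 made up 0.991% ± 0.295 and 2.99% ± 0.605, Aldh1a7 9.38% ± 0.382 and 5.36% ± 0.742, and Aldh1a1 34.1% ± 1.94 and 34.6% ± 2.64.

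**Figure D2:**
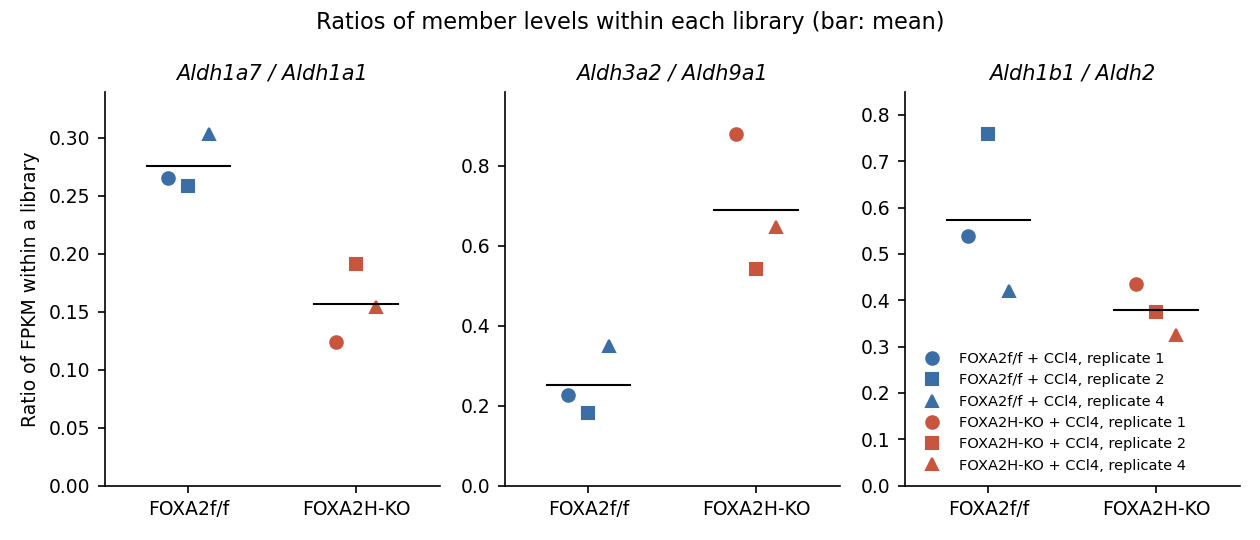
Ratio of FPKM within each library for Aldh1a7 to Aldh1a1, Aldh3a2 to Aldh9a1 and Aldh1b1 to Aldh2; symbols are libraries, with shapes for the replicate numbers, and bars are group means. FOXA2f/f and FOXA2H-KO libraries are apart in the first and second panels, with mean ratios of 0.276 and 0.157 and of 0.253 and 0.689, and overlap in the third.

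Other genes of retinoid handling were divided. Of 13 tested, 8 were below and 5 above 0 (median −0.06, but 0.08 with library size alone and 0.099 without FOXA2f/f replicate 2), and 0 were called. Rdh16, a retinol dehydrogenase that feeds retinal to these enzymes, was higher in all FOXA2H-KO libraries, at 38.3 ± 10.3 against 23.8 ± 1.59 CPM (log2 fold change 0.68 ± 0.20). Rdh10, which oxidises retinol to retinal, had a log2 fold change of −0.32 ± 0.20 with overlapping groups, and −0.095 without FOXA2f/f replicate 2.

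Aldh1b1 (ENSMUSG00000035561, chr4:45799022-45804604, plus strand) and Aldh2 (ENSMUSG00000029455, chr5:121566027-121593824, minus strand) encode the mitochondrial dehydrogenases that oxidise acetaldehyde. Aldh1b1 had 272, 370 and 212 CPM in FOXA2f/f replicates 1, 2 and 4 and 181, 191 and 155 CPM in FOXA2H-KO replicates 1, 2 and 4. The groups did not overlap, with 0.15 log2 units between the closest libraries and all FOXA2H-KO libraries lower (log2 fold change −0.70 ± 0.22). FOXA2f/f replicate 2 was the highest by far, and without it the log2 fold change was −0.46. Aldh2 had 1247, 1202 and 1243 CPM in FOXA2f/f and 1028, 1255 and 1173 CPM in FOXA2H-KO. These groups overlapped, and the log2 fold change of −0.10 ± 0.18 was 0.015 with library size alone, so that its sign depended on the scaling.

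Of the genes that oxidise alcohols and amines, 9 were tested and all 9 were below 0, with a median of −0.14. Over all genes tested 52.2% were below 0. With library size alone 4 of the 9 were below 0, and 5 of 9, with a median of −0.011, without FOXA2f/f replicate 2. Adh4, an alcohol dehydrogenase, had 123, 78.9 and 81.3 CPM in FOXA2f/f and 55.2, 63.4 and 53.8 CPM in FOXA2H-KO, without overlap (log2 fold change −0.72 ± 0.19, and −0.46 without FOXA2f/f replicate 1). Adh5, the formaldehyde-clearing alcohol dehydrogenase, had a log2 fold change of −0.63 ± 0.24 with overlap. Among 13 other enzymes that reduce, oxidise or conjugate aldehydes, 12 were below 0 (median −0.26, and 8 of 13 with a median of −0.12 with library size alone). Without FOXA2f/f replicate 2, 9 of the 13 were below 0 and the median was −0.059, and it was −0.16 without FOXA2f/f replicate 1 and −0.13 without FOXA2H-KO replicate 4. Aox3, an aldehyde oxidase, was the furthest from 0, with 247, 740 and 303 CPM in FOXA2f/f and 150, 93.9 and 76.8 CPM in FOXA2H-KO (log2 fold change −2.01 ± 0.45). All 3 FOXA2H-KO libraries lay below, and FOXA2f/f replicate 2 was again the highest. Without that library the log2 fold change of Aox3 was −1.36. Akr7a5, an aldehyde reductase, had 66.3 ± 8.74 and 51.9 ± 4.32 CPM, also without overlap. In FPKM Akr7a5 overlapped, and 1 of the 13, Aox3, stayed lower without overlap, where 3.24% of all genes did so. In both lists 0 genes were called by the quasi-likelihood test of edgeR, whereas DESeq2 called Aox3 (adjusted p = 0.00156).

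Aldh4a1 (ENSMUSG00000028737, chr4:139622866-139649690, plus strand) encodes the mitochondrial enzyme that completes the breakdown of proline to glutamate. It had 141, 161 and 127 CPM in FOXA2f/f replicates 1, 2 and 4 and 98.8, 113 and 93.6 CPM in FOXA2H-KO replicates 1, 2 and 4. All FOXA2H-KO libraries were lower, with 0.17 log2 units between the groups at their closest, and the log2 fold change was −0.49 ± 0.15. In GENCODE M21 the gene Gm21969 covers 32.5% of the Aldh4a1 exons on the same strand, and Gm21969 had 0 to 4 counts per library. Of 8 genes of proline and hydroxyproline metabolism tested, 6 were below 0, with a median of −0.34, or −0.21 with library size alone, and 0 were called. Hoga1, of hydroxyproline breakdown, had a log2 fold change of −0.39 ± 0.16 with overlap.

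Aldh1l1 (ENSMUSG00000030088, chr6:90486427-90600203, plus strand) encodes the cytosolic formyltetrahydrofolate dehydrogenase, which returns one-carbon units of folate to tetrahydrofolate and carbon dioxide. It had 941, 1006 and 795 CPM in FOXA2f/f replicates 1, 2 and 4 and 566, 841 and 591 CPM in FOXA2H-KO replicates 1, 2 and 4. FOXA2H-KO replicate 2 reached into the FOXA2f/f range, and the other FOXA2H-KO libraries lay below it. The log2 fold change was −0.46 ± 0.22, and −0.66 without FOXA2H-KO replicate 2. Of 15 folate genes tested, 12 were below 0 (median −0.30, and 10 of 15 with a median of −0.17 with library size alone and of −0.18 without FOXA2f/f replicate 2), and 0 were called. The FOXA2H-KO libraries lay below all FOXA2f/f libraries for 7 of the 15, namely Gnmt, Shmt1, Shmt2, Mthfd2, Mthfd2l, Amt and Mthfs, where 5.96% of all genes did so. In FPKM, which carry no scaling but the total count, this held for 3 of the 15, and for 3.24% of all genes. Some of the 7 were barely apart, such as Mthfs, with 2.30 CPM in FOXA2f/f replicate 2 and 2.29 CPM in FOXA2H-KO replicate 2. Gnmt, the glycine methyltransferase that uses up S-adenosylmethionine, had 512, 440 and 478 CPM in FOXA2f/f and 287, 396 and 319 CPM in FOXA2H-KO (log2 fold change −0.51 ± 0.18). Mthfd2, a mitochondrial folate enzyme, had 6.33 ± 2.57 and 3.64 ± 0.371 CPM (log2 fold change −0.79, and −0.42 without FOXA2f/f replicate 2). Shmt2, the mitochondrial serine hydroxymethyltransferase, had 161 ± 24.5 and 122 ± 14.7 CPM.

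Aldh7a1 (ENSMUSG00000053644, on the minus strand of chromosome 18) encodes antiquitin, which oxidises the semialdehyde of lysine breakdown and also betaine aldehyde. It had 393, 346 and 344 CPM in FOXA2f/f replicates 1, 2 and 4 and 222, 307 and 360 CPM in FOXA2H-KO replicates 1, 2 and 4. The groups overlapped through FOXA2H-KO replicate 4, and the log2 fold change of −0.28 ± 0.20 was −0.11 without FOXA2H-KO replicate 1 and −0.44 without FOXA2H-KO replicate 4. Of 8 genes of lysine and choline breakdown, 4 were above and 4 below 0 (median −0.06, but 0.08 with library size alone, and −0.22 to 0.031 when single libraries were left out). Chdh, which makes betaine aldehyde from choline, was lower in all FOXA2H-KO libraries, at 162 ± 6.52 against 229 ± 52.4 CPM (log2 fold change −0.50 ± 0.19, and −0.33 without FOXA2f/f replicate 2). Aass, the first enzyme of lysine breakdown, had 285 ± 11.2 CPM in FOXA2f/f and 383 ± 117 CPM in FOXA2H-KO with overlap (log2 fold change 0.43, and 0.18 without FOXA2H-KO replicate 4). In this list 0 genes were called.

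Aldh8a1 (ENSMUSG00000037542, chr10:21377291-21396585, plus strand) acts in the kynurenine pathway of tryptophan breakdown, on aminomuconic semialdehyde. It had 245, 314 and 206 CPM in FOXA2f/f replicates 1, 2 and 4 and 207, 240 and 241 CPM in FOXA2H-KO replicates 1, 2 and 4. The groups overlapped, and the log2 fold change was −0.15 ± 0.19 with all libraries and 0.029 without FOXA2f/f replicate 2. Tdo2, the dioxygenase that opens the pathway, stood on the other side of 0, with 1354, 1323 and 1223 CPM in FOXA2f/f and 1938, 2150 and 2433 CPM in FOXA2H-KO (log2 fold change 0.74 ± 0.19). All FOXA2H-KO libraries were above the FOXA2f/f libraries for Tdo2, whereas 6 of the 8 genes of the pathway tested were below 0 (median −0.25, or −0.13 with library size alone). Without FOXA2f/f replicate 2 this median was −0.041, and without FOXA2H-KO replicate 1 −0.11. Kynu, the kynureninase, had a log2 fold change of −0.42 ± 0.20 with overlap, or −0.17 without FOXA2f/f replicate 2. Of the 8, 0 were called.

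Aldh9a1 (ENSMUSG00000026687, chr1:167349991-167368532, plus strand) oxidises trimethylaminobutyraldehyde in carnitine synthesis. It had 179, 210 and 148 CPM in FOXA2f/f replicates 1, 2 and 4 and 130, 161 and 171 CPM in FOXA2H-KO replicates 1, 2 and 4. The groups overlapped over most of their range (log2 fold change −0.22 ± 0.18). This log2 fold change was −0.088 without FOXA2f/f replicate 2, −0.11 without FOXA2H-KO replicate 1 and −0.089 with library size alone. Of 4 other carnitine genes tested, 2 were above and 2 below 0 (median 0.29, but 0.079 without FOXA2H-KO replicate 4), and 0 were called. Crat, the carnitine acetyltransferase, had 16.7, 20.7 and 20.98 CPM in FOXA2f/f and 32.0, 18.4 and 48.3 CPM in FOXA2H-KO. FOXA2H-KO replicate 2 lay within the FOXA2f/f range, so that the groups overlapped (log2 fold change 0.76 ± 0.32, and 0.38 without FOXA2H-KO replicate 4). Slc22a5, the carnitine transporter, had a log2 fold change of 0.66 ± 0.34 with overlap, and 0.25 without FOXA2H-KO replicate 4.

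Over the 10 genes, 9 log2 fold changes were below 0, or 8 with library size alone, with a median of −0.32, where 52.2% of all genes tested were below 0 and their median was −0.01. Of the 10 hepatocyte markers 9 were below 0 as well, with a median of −0.13, but 4 with library size alone. By the quasi-likelihood test of edgeR, with p adjusted by Benjamini-Hochberg over all genes, 0 of the 10 were called, with adjusted p from 0.539 for Aldh3a2 and Aldh1a7 to 0.991 for Aldh2, where 0.00694% of all genes were called. An unadjusted p under 0.05 was reached by 4 of the 10 (Aldh3a2, Aldh1a7, Aldh4a1 and Aldh1b1), where 5.17% of all genes reached it. DESeq2 called 2 of the 10, Aldh3a2 (adjusted p = 9.21e-06) and Aldh1a7 (adjusted p = 0.000159), among 0.489% of the genes to which it gave an adjusted p, and the exact test of edgeR called the same 2 genes among 0.444% of all genes tested. The groups did not overlap for 5 of the 10, 1 higher and 4 lower in FOXA2H-KO, where 10.5% of all genes did not overlap. The same 5 genes did not overlap in FPKM, where the share over all genes was 11.5%, with 8.28% higher and 3.24% lower. As the 10 genes were picked with these differences known, these counts are not evidence about the family as a whole.

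**Figure D3:**
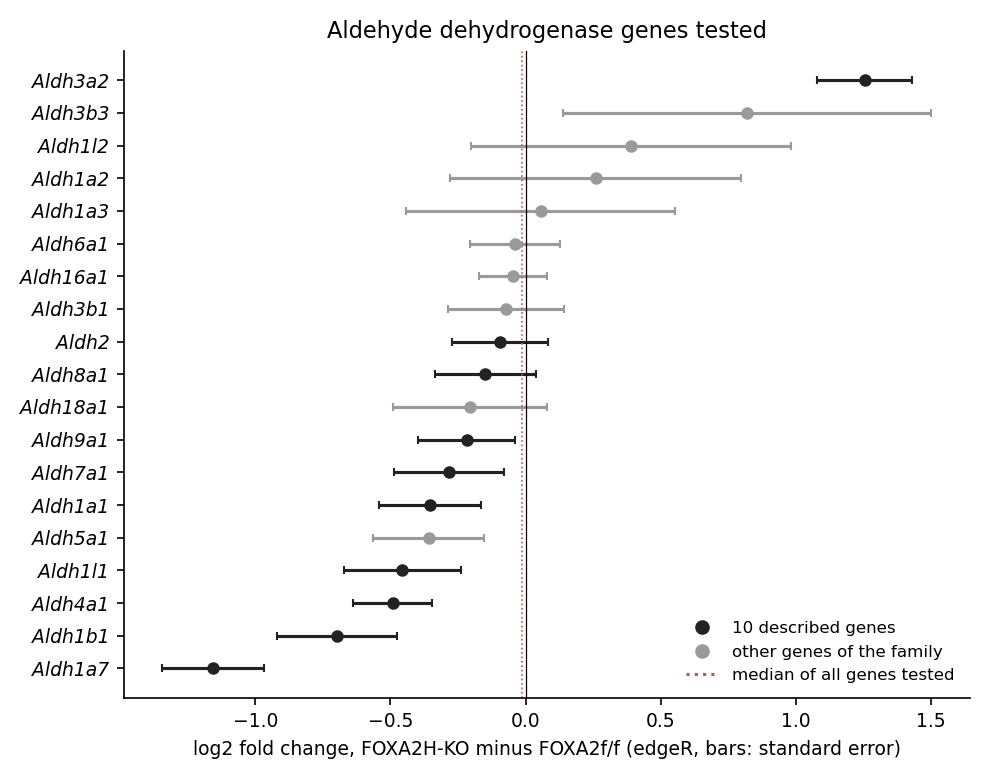
Log2 fold change (FOXA2H-KO minus FOXA2f/f) with its standard error from edgeR for the 19 aldehyde dehydrogenase genes tested, with the 10 described genes in black and the others in grey; the dotted line is the median of all genes tested, −0.01. Aldh3a2 at 1.26 and Aldh1a7 at −1.16 lie at the ends, and the other genes within 1 unit of 0.

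The other genes of the family are given beside the 10, which were picked with their differences known. Of the 11, 9 were tested and 0 were called. The groups overlapped in CPM in all 9, where 10.5% of all genes did not overlap. In FPKM 1 of the 9, Aldh6a1, did not overlap and was higher in FOXA2H-KO, where 11.5% of all genes did not overlap. The median log2 fold change was −0.04, with 5 of 9 below 0, but 0.09 with 2 of 9 below 0 with library size alone. When single libraries were left out it was −0.13 to 0.11. Aldh6a1, the mitochondrial methylmalonate semialdehyde dehydrogenase, was the most abundant, with 275 ± 38.3 CPM in FOXA2f/f and 267 ± 26.4 CPM in FOXA2H-KO (log2 fold change −0.04 ± 0.17, but 0.090 with library size alone). Aldh16a1 had 53.8 ± 3.63 and 52.1 ± 4.79 CPM (−0.05 ± 0.13, but 0.060 with library size alone), and Aldh5a1, the succinic semialdehyde dehydrogenase, 37.1 ± 9.77 and 28.9 ± 3.09 CPM (−0.36 ± 0.20, but −0.15 without FOXA2f/f replicate 2 and −0.22 with library size alone). Aldh1a2, Aldh1a3, Aldh1l2, Aldh3b1, Aldh3b3 and Aldh18a1 had means of under 10 CPM in both groups and log2 fold changes from −0.21 for Aldh18a1 to 0.82 for Aldh3b3, with standard errors from 0.21 to 0.68. Aldh3b2 had 1 count in each of FOXA2H-KO replicates 1 and 2 and 0 elsewhere.

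Aldh3a2 and Aldh1a7 stayed at the ends of the 10 genes under the other settings that fitted each gene alone. With the counts of Aldh1a1 and Aldh1a7 summed, the pair was at −0.49. Aldh3a2 had log2 fold changes of 1.17 to 1.40 when single libraries were left out and 1.25 to 1.36 under other tests, scalings and filters. Aldh1a7 had −1.31 to −1.01 when single libraries were left out and −1.17 to −1.03 under other tests, scalings, filters and the replicate block. Without FOXA2f/f replicate 2, Aldh1a1 was at −0.20, Aldh1b1 at −0.46 and Aldh4a1 at −0.40, and without FOXA2f/f replicate 4 Aldh1a1 was at −0.48 and Aldh1b1 at −0.87. With library size alone, Aldh1a1 was at −0.22, Aldh7a1 at −0.18 and Aldh8a1 at −0.014.

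**Figure D4:**
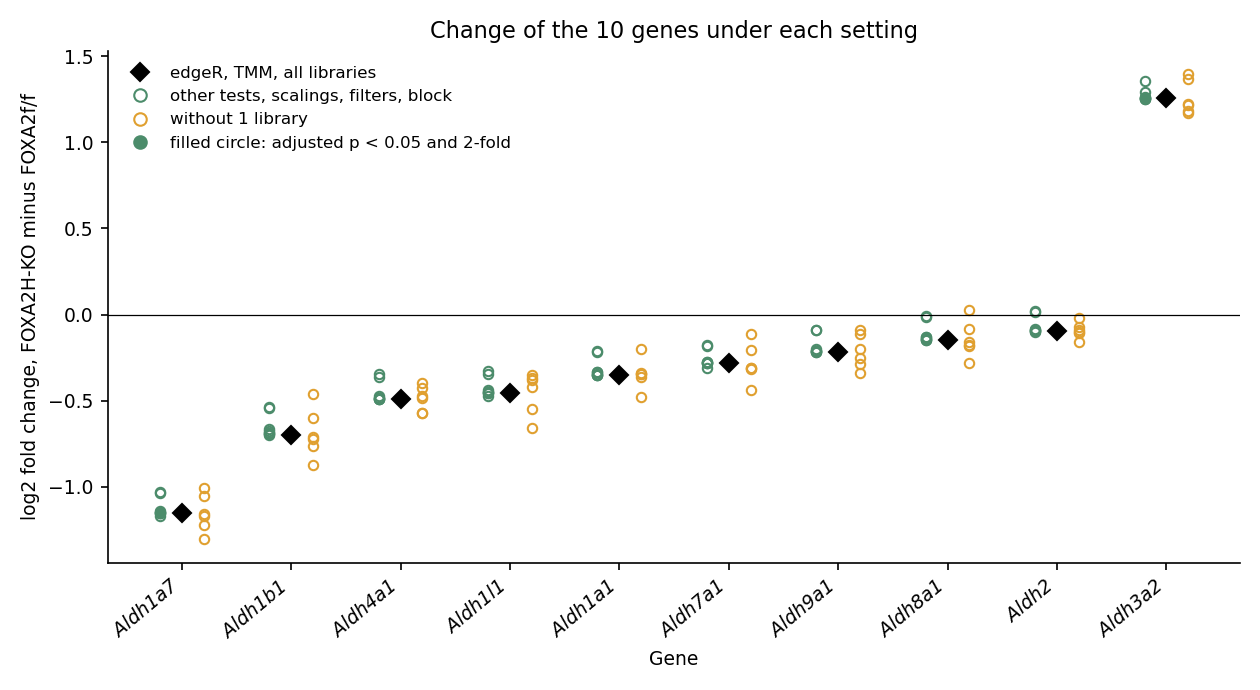
Log2 fold change (FOXA2H-KO minus FOXA2f/f) of each of the 10 genes, ordered by the value with all libraries (black diamond), with other tests, scalings, filters and the replicate block in green and the 6 fits without 1 library in orange; filled circles mark an adjusted p under 0.05 with a 2-fold change. Aldh3a2 stays above 1 and Aldh1a7 below −1 at every point, and Aldh2 and Aldh8a1 cross 0.

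The genes whose CPM followed Aldh3a2 most closely over the 6 libraries were sought among 8294 genes with a mean of at least 10 CPM. Nrip1, a nuclear receptor corepressor, was the closest (Pearson's r = 0.99 of log2 CPM), with 14.3, 13.7 and 16.9 CPM in FOXA2f/f and 23.8, 20.6 and 22.2 CPM in FOXA2H-KO, followed by Nck2, Ccdc6, Map3k13 and Clcn4 with r from 0.98 to 0.99. In the opposite direction stood C2cd5, Slc35c2, Tlcd1, the hepatocyte transferrin receptor gene Tfr2 and Aldh1a7, each with r = −0.98. Among all 8294 genes 82 had r above 0.9 and 128 below −0.9, and as the 6 points form the groups compared, these values describe the order of the libraries. Within each group as well, the libraries ordered from low to high Aldh3a2 in CPM were ordered from high to low Aldh1a7 and Aldh1l1. FOXA2H-KO replicate 1, with the highest Aldh3a2 at 181 CPM, thus had the lowest Aldh1a7 and Aldh1l1, at 72.3 and 566 CPM. FOXA2f/f replicate 4, with the highest Aldh3a2 of its group at 81.8 CPM, had the lowest of its group, at 186 and 795 CPM. These orders depended on the scaling. In FPKM, FOXA2f/f replicate 4 was instead the highest of its group for Aldh1a7 and Aldh1l1 too, at 100 and 136 FPKM. For Aldh1l1, FOXA2H-KO replicate 4, at 90.8 FPKM, lay below FOXA2H-KO replicate 1, at 98.3 FPKM. FOXA2f/f replicate 4 also held the highest endothelial, macrophage and stellate cell sums, and FOXA2H-KO replicate 1 the highest of its group for macrophages, stellate cells and cholangiocytes, and their part in these orders was not tested.

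**Figure D5:**
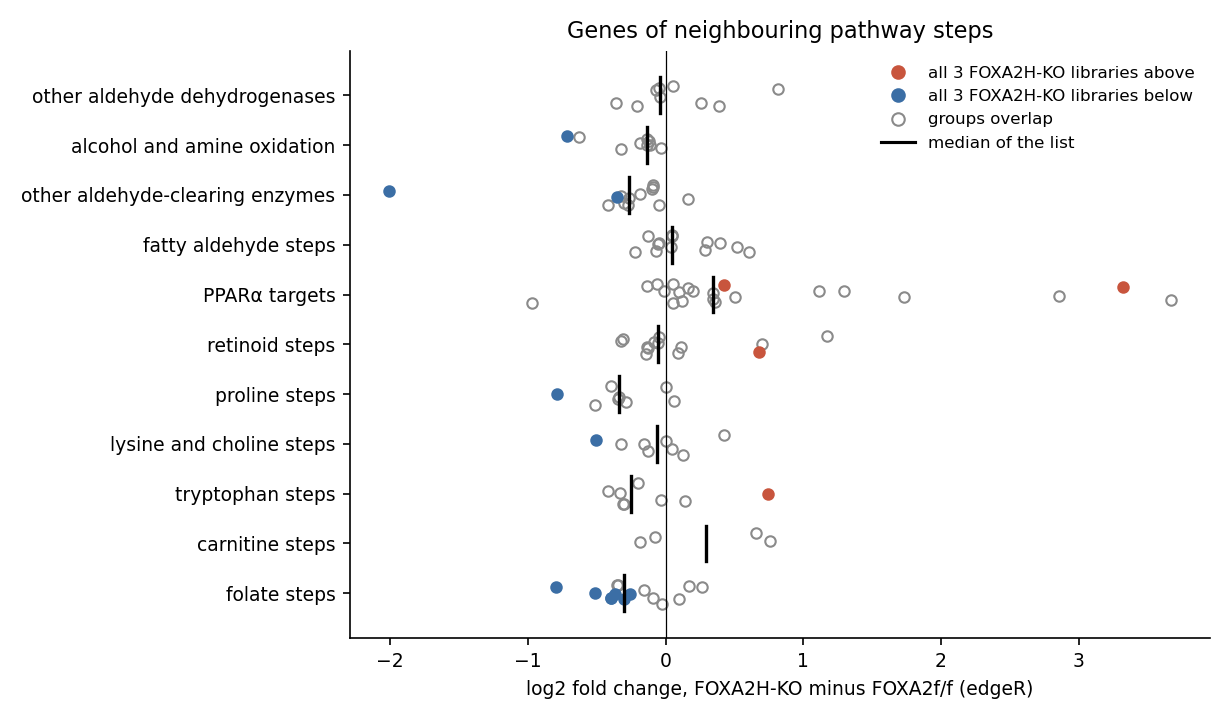
Log2 fold change (FOXA2H-KO minus FOXA2f/f, edgeR) of genes in the steps next to the 10 genes, 1 row per list; filled red and blue circles are genes whose 3 FOXA2H-KO libraries all lie above or below the FOXA2f/f libraries, open circles genes whose groups overlap, and black bars the list medians. The folate list holds 7 blue circles of 15, with a median of −0.30, where 5.96% of all genes tested lay lower without overlap. In FPKM 3 of the 15 did so. The PPARα list extends furthest to the right, with a median of 0.35, but 0.0040 without FOXA2H-KO replicate 4.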

How the data were processed

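Total RNA of primary hepatocytes was made into paired-end TruSeq libraries. The submitters' processing notes name CASAVA 1.8, TopHat2 2.1.0, HTSeq, edgeR and the mm10 build, and the annotation is not given in the sources used here. The authors deposited, per library, whole-number counts of fragments per gene without normalization, and FPKM values. The deposited FPKM follow from the counts, since the length a gene's values imply was the same in each library (relative spread of 4.37e-05 at most in 11982 genes). A table of the whole series repeats these values and was not used separately.

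The count analysis used edgeR 4.0.16 under R 4.3.3 (filterByExpr, TMM scaling, quasi-likelihood test without a block, Benjamini-Hochberg adjustment over 14417 genes), with calls at an adjusted p under 0.05 and a fold change of at least 2. CPM are scaled to the TMM-adjusted library size, and the standard error is the log2 fold change divided by the square root of F. The scripts were tested on simulated counts. Replicates differed beyond counting noise (chi-square of 35.9 to 123 times its degrees of freedom). The labels do not tie libraries to single mice, so p-values measure the spread between libraries, which may be technical. Symbols were found for 34267 genes, and 478 kept their identifiers. Positions and overlaps came from GENCODE M21 (GRCm38), promoters from RefSeq (GRCm38.p6). Whether counting used strand is not stated, so that reads of overlapping antisense genes may be mixed.

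Alternatives were DESeq2 1.42.0, edgeR's exact test, upper quartile factors, library size alone, limma 3.58.1 on log2(FPKM + 1) where the mean FPKM was at least 1, no filter beyond 1 count, at least 10 counts in every library, a replicate block, each library left out, other call rules, the paralogue counts summed and TMM-scaled levels. Exon lengths of GENCODE M21, and the other call rules for the 10 genes, were added after seeing the data. The members and lists were chosen with earlier results of these data known. The genes named were the 10, the rest of the family, Foxa2, the 2 genes with the smallest p of each pathway or zone list, and the 5 most and 5 least correlated with Aldh3a2. A list gene that this rule names is not reported here. Shmt2 and the other folate genes without overlap were named after their values were seen, as were Angptl4, Apoa1, Hnf4a and genes given as examples of lists. The 2 most abundant genes of each cell type list were given only within the summed levels.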

Additional observations from a re-analysis of the deposited data

How the results depend on the processing

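The 1 gene called over the whole table became 0 with library size alone, 0 with limma, 2 without a filter, 75 with DESeq2, 64 with edgeR's exact test and 254 at an unadjusted p with a 2-fold change, and it ranged from 0 to 6 when single libraries were left out, with 6 called without FOXA2f/f replicate 2 and 0 without any other. Foxa2 itself kept a log2 fold change of −4.17 to −3.63 in those fits. The cause was not tested. Of the 10 genes, DESeq2 and the exact test called 2, the rule of an unadjusted p with a 2-fold change took in 2, and each other setting called 0. Their median stayed between −0.41 and −0.20. The order of levels kept 20 of 20 ranks with TMM-scaled levels and 8 of 20 with GENCODE M21 exon lengths, where Aldh1a1, at 4937 instead of 2053 bases, moved down and Aldh7a1, at 5181 instead of 7673 bases, moved up. With library size alone the median over all genes was 0.10, and the sign turned for Aldh2 (0.015), Aldh3b1 (0.024), Aldh6a1 (0.090) and Aldh16a1 (0.060), as it did with limma (0.023, 0.048, 0.088 and 0.062). Leaving out 1 library turned the sign of Aldh8a1 (range −0.28 to 0.029), Aldh1a2 (−0.40 to 0.67), Aldh1a3 (−0.34 to 0.32), Aldh1l2 (−0.33 to 0.77), Aldh3b1 (−0.19 to 0.11), Aldh6a1 (−0.15 to 0.034) and Aldh16a1 (−0.098 to 0.027). With the replicate number as a block 0 genes were called. Deviations of same-numbered libraries correlated at −0.07, 0.03 and −0.23, and no library correlated best with its own number in the other group, so that the numbers were not taken to pair the libraries. Depth limited Aldh3a1 and Aldh3b2, with at most 1 count per library.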

Other observations

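Genes that mark the zones of the liver lobule were described apart from the aldehyde steps. Oat, the ornithine aminotransferase of pericentral hepatocytes, whose product is the same semialdehyde that Aldh4a1 oxidises, had 26.1, 14.2 and 35.4 CPM in FOXA2f/f replicates 1, 2 and 4 and 89.9, 103 and 89.6 CPM in FOXA2H-KO replicates 1, 2 and 4. All FOXA2H-KO libraries were above the FOXA2f/f libraries (log2 fold change 1.89 ± 0.30). By the quasi-likelihood test of edgeR, with p adjusted by Benjamini-Hochberg, it was not called (adjusted p = 0.539), whereas DESeq2 called it (adjusted p = 1.04e-05). Of 13 pericentral genes tested, 10 were above 0 (median 0.27) and 0 were called. The median was 0.070 without FOXA2f/f replicate 2, with 7 of 13 above 0, and 0.095, 0.13 and 0.47 without FOXA2H-KO replicate 1, FOXA2H-KO replicate 2 and FOXA2f/f replicate 1. Lhpp, a phosphatase, was also higher in all FOXA2H-KO libraries, at 3.39 ± 0.440 against 1.63 ± 0.768 CPM. Of 13 periportal genes, 8 were below 0 (median −0.07, but 0.06 with library size alone, and −0.25 to 0.054 when single libraries were left out) and 0 were called. Igfals, a binding partner of insulin-like growth factors, had 44.7 ± 6.996 CPM in FOXA2f/f and 26.6 ± 4.596 CPM in FOXA2H-KO, without overlap, and Hsd17b13, a lipid droplet protein, had a log2 fold change of 0.44 ± 0.23 with overlap.

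Of 15 target genes of the oxidant sensor NRF2, 11 were below 0 (median −0.12, and 8 of 15 with −0.0076 with library size alone, and −0.0043 without FOXA2H-KO replicate 4) and 0 were called. Txnrd1, the cytosolic thioredoxin reductase, had 159 ± 28.8 and 125 ± 8.26 CPM, lower in all FOXA2H-KO libraries (log2 fold change −0.36, and −0.20 without FOXA2f/f replicate 2). In FPKM its groups overlapped, as did those of the rest of the 15. Me1, the malic enzyme, had 150 ± 164 and 44.3 ± 13.2 CPM with overlap (log2 fold change −1.75, and −0.32 without FOXA2f/f replicate 2). Foxa1 and Foxa3, the other FOXA genes, chosen after their values were seen, overlapped between the groups, Foxa1 with 16.6 ± 3.83 CPM in FOXA2f/f and 18.2 ± 1.43 CPM in FOXA2H-KO and Foxa3 with 40.4 ± 7.40 and 43.2 ± 8.39 CPM.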
